A study of Camelus dromedarius with 30 samples.

Results

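Oxidative phosphorylation genes were followed through the kidney cortex and medulla of the Arabian camel under normal hydration, severe dehydration and rehydration. The 36 genes described here, of 22444 in the count table, are those whose symbols start with NDUF, SDH, UQCR, COX or ATP5 in the study's list of differentially expressed genes (the DEG list) or in its list of proteins that differed in abundance (the protein list). The DEG list holds 18 of them, the protein list holds 24, and 6 are in both (ATP5F1D, ATP5IF1, COX20, NDUFC1, UQCRC1 and UQCRC2). All 36 passed the filter on low counts. The DEG list was chosen by the study on these same counts, so its 12 genes that the protein list does not hold are described between conditions without a test, whereas the 24 protein-listed genes were tested. Because the DEG list also names 6 of those 24, results are given separately for the 18 genes that came in through the protein list alone. These 18 are absent from the DEG list in the shortened copy used here. That list was drawn from the same counts, so that a lack of calls among them is partly set in advance.

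Cortex and medulla were sampled from the kidneys of 15 male camels aged 4 to 5 years, fed alfalfa hay. The 5 control animals drank freely. A further 5 had no water for 20 days (dehydration), and the last 5 had no water for 20 days and then drank at will for 3 days (rehydration). By the labels each animal gave 1 library from each tissue, though the column names leave the pairing of the rehydrated group in doubt. The 30 libraries form 6 groups of 5, and replicates are separate animals.

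Oxidative phosphorylation is carried out by the inner mitochondrial membrane. Complex I (NADH dehydrogenase) and complex II (succinate dehydrogenase) pass electrons to ubiquinone, complex III passes them on to cytochrome c, and complex IV (cytochrome c oxidase) passes them to oxygen. The proton gradient built on the way drives ATP synthase. In the kidney most of this ATP pays for the Na/K-ATPase that powers tubular reabsorption, and the proximal tubule of the cortex and the thick ascending limb of the outer medulla are rich in mitochondria, while the inner medulla relies more on glycolysis.

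By role, the 36 genes are 14 subunits of complex I (NDUFA1, NDUFA2, NDUFA6, NDUFA9, NDUFB4, NDUFB6, NDUFB7, NDUFB9, NDUFB10, NDUFC1, NDUFS5, NDUFS6, NDUFS7 and NDUFV2) with 2 of its assembly factors (NDUFAF3 and NDUFAF4), 2 assembly factors of complex II (SDHAF2 and SDHAF3), 3 subunits of complex III (UQCRC1, UQCRC2 and UQCRFS1), 3 subunits of complex IV (COX4I1, COX6B1 and COX7A2) with 4 of its assembly factors (COX11, COX17, COX18 and COX20), 7 subunits of ATP synthase (ATP5F1A to ATP5F1E, ATP5MC3 and ATP5ME) and its inhibitor ATP5IF1. The label of oxidative phosphorylation genes thus covers 9 genes that build or restrain the complexes without being part of the chain, and no subunit of complex II. The 13 genes of the mitochondrial genome are not analysed here. In the CamDro2 assembly, 34 of the 36 genes lie on 23 chromosomes, with at most 3 on any of them, and NDUFB6 and NDUFB10 lie on unplaced scaffolds.

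The libraries held 12634346 to 20005136 counted read pairs, and the least abundant member had 93 counts in its lowest library. Expression is given as CPM, the usual unit of counts scaled to a common library total, here the total after TMM scaling (a factor per library that centres most genes). These factors ran from 0.7395 to 0.8996 in the cortex and from 1.048 to 1.312 in the medulla. Cortex control replicate 3 and cortex rehydration replicates 2 and 3 stood apart, with 14199 to 15254 genes detected, against 15740 to 16755 in the other cortex libraries and 16521 to 17514 in the medulla. In these 3 libraries 12 of the 36 members lay above every other library of their group, among them COX17, NDUFS7, NDUFB7 and NDUFS6. Of the kidney's cell types, proximal tubule markers (5 matched of 15, none at 0 in a library) summed to 2520 to 5230 CPM in the control cortex and 77.9 to 1040 CPM in the control medulla, and thick ascending limb markers (4 of 8) to 4190 to 5950 and 18300 to 22700 CPM. The podocyte marker SYNPO, the only one of 5 that was matched, was not a cortex marker here, at 0.887 to 3.4 CPM in the control cortex and 6.26 to 12.6 CPM in the control medulla. In bulk tissue, fewer cells of a type and less RNA per cell cannot be told apart.

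The members took 1.57 to 2.01% of all counts in the control cortex and 1.32 to 1.69% in the control medulla. ATP synthase subunits made up the larger part, with a summed level of 11591 CPM in the control cortex, followed by 4269 CPM for the 14 complex I subunits, 3097 CPM for the 3 complex IV subunits and 1987 CPM for the 3 complex III subunits. Per kilobase of counted length, ATP5F1E, the epsilon subunit of ATP synthase, stood first in the control cortex at 5930 ± 2090 CPM per kb (SD, n = 5). COX17, a copper chaperone for complex IV, followed at 2640 CPM per kb, then ATP5ME at 2610 and the catalytic beta subunit ATP5F1B at 2560, which do not differ beyond their spread. At the low end were the assembly factors COX11 (34.4 CPM per kb), COX18 (16.6) and NDUFAF4 (12.4). With COX4I1, these genes also led the control medulla, in another order, with ATP5F1E at 2140 CPM per kb, ATP5F1B at 1890, COX17 at 1650, COX4I1 at 1100 and ATP5ME at 1000. COX11, COX18 and NDUFAF4 were again the last. The counted lengths run from 156 to 2412 bases and some gene models may lack untranslated ends, so that this order depends on the annotation.

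**Figure D1:**
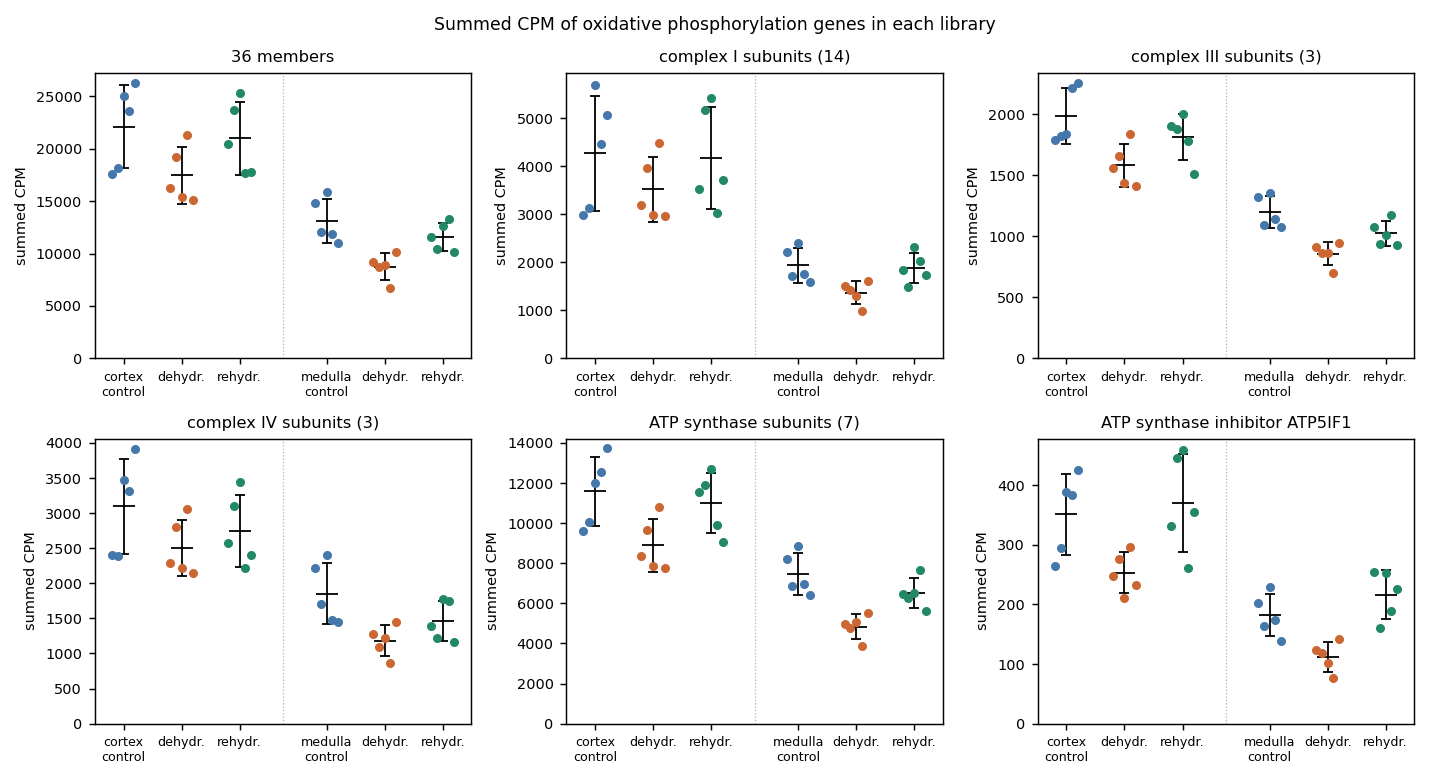
Summed CPM (y axis, from 0) of all 36 members, of the subunits of complexes I, III and IV and of ATP synthase, and of the inhibitor ATP5IF1, in each of the 30 libraries (points) by tissue and condition. Bars show the mean and SD of 5 libraries, and in the panel of all members every medulla library lies below every cortex library of its condition, with the dehydrated medulla lowest at a mean of 8746 CPM.

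Medulla and cortex were compared within each condition, to ask how the chain is distributed in the kidney. In control camels 34 of 36 members were lower in the medulla, against 28.6% of all tested genes, none was higher, and the median log2 fold change was -0.93 (0.10 over all genes). The summed level of the members was 22113 ± 3988 CPM in the control cortex and 13114 ± 2064 CPM in the control medulla (SD, n = 5), 40.7% lower, and no medulla library reached the lowest cortex library. All 14 complex I subunits were lower (median -1.11), as were the 3 complex III subunits (-0.73), the 3 complex IV subunits (-0.75), the 7 ATP synthase subunits (-0.84), the inhibitor (-0.95), both complex II assembly factors (-0.84) and 3 of 4 complex IV assembly factors. The exceptions were NDUFAF4 (-0.29, edgeR adjusted p = 0.117) and COX17 (-0.68, edgeR adjusted p = 0.141). Under dehydration 34 members were lower, against 31% of all genes, with a median of -1.12, and after rehydration 32, against 28.1%, with a median of -0.94; NDUFAF4 and COX17 again did not pass, nor did NDUFS6 (-0.54) and NDUFS7 (-0.88) after rehydration.

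This count rests on the scaling. TMM gave the medulla larger factors, and with library totals alone the log2 fold change of all genes moved by 0.52 to 0.55 towards the medulla. On that scale 22, 25 and 20 members were lower in the medulla of control, dehydrated and rehydrated camels, against 14.4%, 16% and 14.4% of all genes, none was higher, 32, 32 and 34 of 36 were below 0, and the medians were -0.41, -0.57 and -0.41. Among the members not below 0 in control camels were ATP5F1A, ATP5F1B and NDUFAF4, at 0.06, 0.08 and 0.23. Without the 3 cortex libraries that stood apart, the counts were 32, 35 and 29. Markers of the proximal tubule, as given above, and of the distal convoluted tubule (3 matched of 5, at 665 to 2290 CPM in the control cortex and 63.0 to 401 CPM in the control medulla) were lower in the medulla too. Thick ascending limb markers went the other way, at 4190 to 5950 CPM in the control cortex and 18300 to 22700 CPM in the control medulla. The part of these cell types in the difference was not tested.

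The 3 members furthest below the cortex were NDUFB4, NDUFB6 and ATP5F1E. NDUFB4 (chromosome 1, 66754786 to 66761185, minus strand), an accessory subunit of the membrane arm of complex I, was at 261, 261, 444, 374 and 461 CPM in the control cortex and 145, 98.5, 162, 117 and 111 CPM in the control medulla. In dehydrated camels it was at 330, 387, 280, 427 and 267 CPM in the cortex and 114, 112, 82.4, 70.5 and 107 CPM in the medulla, and in rehydrated camels at 300, 396, 426, 265 and 302 and 96.2, 94.6, 143, 131 and 94.5 CPM. The tissues did not overlap in any condition, with log2 fold changes of -1.51 ± 0.20 (SE), -1.80 ± 0.20 and -1.60 ± 0.20 (edgeR adjusted p = 4.38e-07, 3.1e-08 and 1.51e-07).

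NDUFB6, another accessory subunit of that arm, was at 216, 251, 504, 326 and 404 CPM in the control cortex and 135, 91.1, 172, 115 and 90 CPM in the control medulla. In dehydrated camels the values were 212, 283, 186, 315 and 187 CPM in the cortex and 85.6, 94.7, 79.4, 52.3 and 89.5 CPM in the medulla, and in rehydrated camels 257, 460, 494, 198 and 257 and 111, 94.9, 153, 119 and 118 CPM. Every medulla library was below every cortex library, and the control difference was -1.49 ± 0.25 (edgeR adjusted p = 1.69e-05). Among cortex libraries, the highest NDUFB6 values came from the 3 that stood apart, and without them the difference was -1.31.

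ATP5F1E (chromosome 19, 41248274 to 41250125, minus strand) was at 590, 588, 1170, 990 and 1290 CPM in the control cortex and 416, 293, 431, 262 and 266 CPM in the control medulla. Dehydrated camels had 631, 843, 519, 918 and 640 CPM in the cortex and 247, 235, 228, 148 and 300 CPM in the medulla. Rehydrated camels had 519, 985, 812, 441 and 602 CPM in the cortex and 244, 200, 364, 284 and 233 CPM in the medulla. The tissues were again apart in every condition, with a control difference of -1.47 ± 0.25 (edgeR adjusted p = 1.68e-05).

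The 3 members nearest to equal levels were ATP5F1A, ATP5F1B and NDUFAF4. The catalytic core of ATP synthase, made of the alpha subunit ATP5F1A (chromosome 30, 22326009 to 22334513, plus strand) and the beta subunit ATP5F1B (chromosome 12, 6616177 to 6622044, minus strand), thus differed less between the tissues than its epsilon subunit; the difference between genes was not tested. ATP5F1A was at 2110, 2200, 1950, 2480 and 2490 CPM in the control cortex and 1760, 1580, 1740, 1600 and 1480 CPM in the control medulla, without overlap (-0.46 ± 0.13, edgeR adjusted p = 0.00265). ATP5F1B was at 4750, 4920, 5220, 6010 and 6410 CPM in the control cortex and 4360, 3690, 4880, 3720 and 3460 CPM in the control medulla. One medulla library, replicate 3, was above the lowest cortex library, and the difference was -0.44 ± 0.16 (edgeR adjusted p = 0.0216). It no longer passed without cortex control replicate 5 (edgeR adjusted p = 0.0618), without medulla control replicate 5 (0.0562) or with the animal as a block (0.0725). NDUFAF4 (chromosome 8, 55206827 to 55213692, plus strand), an assembly factor of complex I, was at 12.8, 14.9, 17, 15.7 and 11.9 CPM in the control cortex and 10.8, 11.9, 12.3, 14 and 10.2 CPM in the control medulla. These groups overlapped, and the values under dehydration (15.5, 12.2, 15, 11.7 and 12.8 CPM in the cortex, 12.5, 12, 10.2, 11.4 and 10.3 CPM in the medulla) and rehydration (16.3, 15.2, 14.6, 16.4 and 9.75 CPM and 10.7, 15.4, 15.6, 12.9 and 10.4 CPM) overlapped as well.

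**Figure D2:**
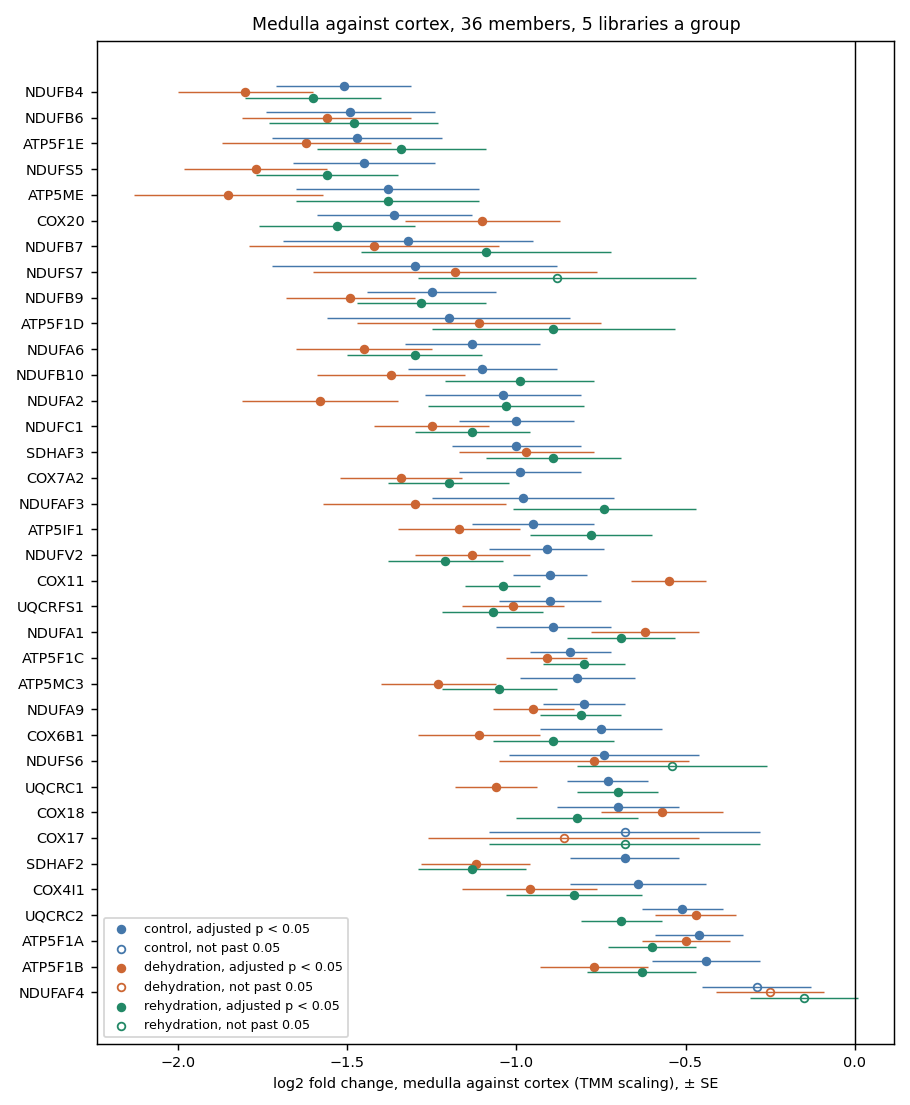
Log2 fold change of each of the 36 members (y axis) between medulla and cortex (x axis, TMM scaling), with the SE as a bar, in control, dehydrated and rehydrated camels; filled circles passed an edgeR adjusted p of 0.05. All points lie left of 0, from -1.85 to -0.15, and the open circles belong to NDUFAF4, COX17, NDUFS6 and NDUFS7.

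Dehydration was compared with control within each tissue, to ask what happens to these genes when water is withheld. In the medulla the summed level was 13114 ± 2064 CPM in control camels and 8746 ± 1257 CPM after dehydration (SD, n = 5), 33.3% lower and without overlap between the groups. By role, it was 36.1% lower for complex IV subunits, 35.1% lower for ATP synthase subunits, 29.1% lower for complex I subunits and 28.5% lower for complex III subunits. In the cortex the sum was 22113 ± 3988 CPM in control and 17460 ± 2699 CPM in dehydrated camels, 21.0% lower with overlapping groups. The DEG list names 13 of the 36 members for the medulla comparison and 6 for the cortex one, on these same counts. ATP5F1B, named for the medulla, alone held 4030 of the 7464 CPM of ATP synthase subunits in the control medulla. The sums, their lack of overlap and the order by role are therefore a description.

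Gene by gene, the fitted log2 fold change of the medulla was below 0 for all 36 members, from -0.81 to -0.07, with a median of -0.49, while 48.6% of all tested genes were below 0 and their median was 0.01. In the cortex all 36 were below 0 too, from -0.66 to -0.02 with a median of -0.35, against 49.5% and 0.00 over all genes. Among the 18 genes of the protein list alone, the medians were -0.47 in the medulla and -0.25 in the cortex. With library totals alone, 35 of 36 were below 0 in the medulla and 34 in the cortex. These folds share libraries and are not independent of each other.

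Few of these differences were called gene by gene. In the medulla 4 of the 24 protein-listed members fell (UQCRC1, NDUFC1, ATP5IF1 and UQCRC2), while 1.16% of all tested genes were lower, and in the cortex 1 fell (UQCRC2), while 1.17% of all genes were lower. The DEG list names each of them for that comparison, so that the calls are not independent of how the genes came in. Of the 18 genes in the protein list alone, none passed in edgeR in either tissue, although 9 in the medulla and 2 in the cortex had an unadjusted p under 0.05. Their absence from the DEG list, which was drawn from these contrasts, made a lack of calls likely beforehand. DESeq2 called 4 and 1 of the 24 in the medulla and cortex. Of the 12 genes in the DEG list alone, 4 were past the same threshold in the medulla (ATP5MC3, ATP5F1C, ATP5F1B and ATP5F1A) and 2 in the cortex (COX11 and ATP5F1C), which is a description, since this contrast chose them.

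UQCRC2 (chromosome 18, 12448034 to 12468550, plus strand), a core protein of complex III on its matrix side, was the only protein-listed member that fell in both tissues. In the cortex it was at 545, 500, 448, 584 and 568 CPM in control, 398, 385, 321, 407 and 339 CPM in dehydrated and 583, 449, 501, 574 and 375 CPM in rehydrated camels. In the medulla it was at 397, 323, 402, 381 and 349 CPM in control, 276, 284, 260, 245 and 275 CPM in dehydrated and 323, 314, 274, 363 and 264 CPM in rehydrated camels. Every dehydrated library was below every control library of its tissue. The log2 fold change with dehydration was -0.52 ± 0.12 in the cortex (edgeR adjusted p = 0.0179) and -0.47 ± 0.12 in the medulla (edgeR adjusted p = 0.0416). The cortex call ended without cortex control replicate 4 (edgeR adjusted p = 0.0582), dehydration replicate 3 (0.0695) or dehydration replicate 5 (0.0562).

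UQCRC1 (chromosome 17, 15862140 to 15870357, minus strand), the other core protein of complex III, fell in the medulla alone by the test, and the responses of the tissues were not shown to differ (interaction -0.33 ± 0.17, edgeR adjusted p = 0.669). Medulla values were 478, 409, 468, 391 and 386 CPM in control, 308, 295, 309, 236 and 363 CPM in dehydrated and 442, 310, 385, 389 and 385 CPM in rehydrated camels. Cortex values were 634, 639, 691, 790 and 786 CPM in control, 597, 670, 592, 709 and 590 CPM in dehydrated and 561, 647, 678, 586 and 624 CPM in rehydrated camels. Control and dehydrated medulla did not overlap (-0.50 ± 0.12, edgeR adjusted p = 0.0246), whereas the cortex groups did (-0.16 ± 0.12, edgeR adjusted p = 0.582).

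NDUFC1 (chromosome 2, 21141846 to 21145546, plus strand), an accessory subunit of complex I, was at 133, 94.2, 118, 102 and 93.7 CPM in the control medulla, 75.7, 75.4, 59.5, 53.8 and 78.8 CPM in the dehydrated medulla and 96.6, 83.1, 128, 117 and 90.6 CPM in the rehydrated medulla. The dehydrated medulla lay below both other groups with no overlap, at -0.65 ± 0.17 against control (edgeR adjusted p = 0.0369). In the cortex it was at 172, 158, 246, 232 and 269 CPM in control, 152, 178, 152, 202 and 135 CPM in dehydrated and 224, 288, 243, 187 and 185 CPM in rehydrated camels, which overlapped.

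ATP5IF1 (chromosome 13, 20266860 to 20269764, plus strand) is the protein that binds ATP synthase and stops it from running backwards and hydrolysing ATP. It was at 203, 163, 229, 174 and 139 CPM in the control medulla, 123, 119, 101, 75.8 and 142 CPM in the dehydrated medulla and 254, 160, 252, 189 and 226 CPM in the rehydrated medulla. The cortex had 264, 294, 388, 383 and 425 CPM in control, 248, 276, 210, 297 and 233 CPM in dehydrated and 332, 445, 459, 261 and 355 CPM in rehydrated camels. In the medulla, dehydrated replicate 5 was just above control replicate 5 and the other dehydrated libraries were below every control library (-0.70 ± 0.18, edgeR adjusted p = 0.0404). In the cortex the groups overlapped (-0.47 ± 0.18, edgeR adjusted p = 0.182).

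These 4 medulla calls depended on single libraries. None of the 4 passed without medulla control replicate 1 or 3 or without medulla dehydration replicate 2, 3 or 4 (edgeR adjusted p = 0.052 to 0.161 in those fits), 2 passed without control replicate 4, UQCRC2 passed without control replicate 2 alone (0.0316), and none passed when only the 10 libraries of both groups entered the fit (0.0765 to 0.126).

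**Figure D3:**
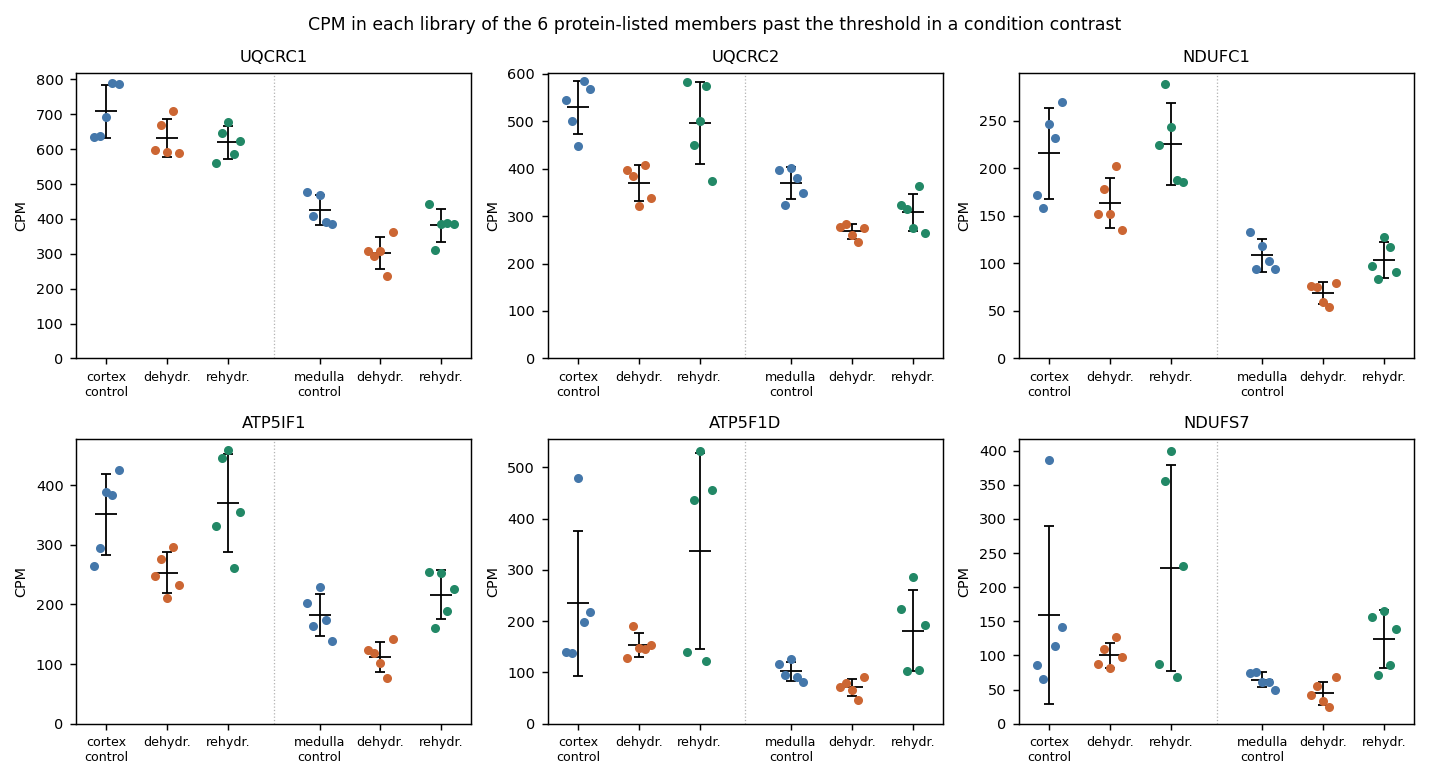
CPM (y axis, from 0) of UQCRC1, UQCRC2, NDUFC1, ATP5IF1, ATP5F1D and NDUFS7 in each library (points) by tissue and condition, with the mean and SD of 5 libraries as bars. UQCRC2 shows the dehydrated libraries of both tissues below all controls, and ATP5F1D and NDUFS7 show a wide spread in the control and rehydrated cortex, where ATP5F1D runs from 122 to 532 CPM.

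The DEG list names ATP5F1A, ATP5F1C, COX11, UQCRC2 and ATP5IF1 in both tissues, not always for the same comparison. UQCRC2 and ATP5IF1 are given above. For ATP5IF1 the list names the dehydrated medulla against control and the rehydrated cortex against the dehydrated cortex. The other genes are described next. ATP5F1A in the cortex was at 1590, 1780, 1500, 1870 and 1560 CPM in dehydrated and 2410, 2280, 2440, 2130 and 1810 CPM in rehydrated camels, beside the control values above. In the medulla it was at 1120, 1180, 1280, 979 and 1310 CPM after dehydration and 1450, 1520, 1320, 1670 and 1340 CPM after rehydration. All dehydrated libraries were below all controls in both tissues, at -0.44 ± 0.13 in the cortex and -0.47 ± 0.13 in the medulla.

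ATP5F1C (chromosome 35, 19278827 to 19293044, minus strand), the gamma subunit that turns inside the catalytic head, was at 744, 780, 777, 898 and 926 CPM in the control cortex, 607, 582, 563, 709 and 532 CPM in the dehydrated cortex and 816, 783, 870, 685 and 632 CPM in the rehydrated cortex. In the medulla it was at 502, 408, 510, 466 and 415 CPM in control, 363, 313, 287, 269 and 361 CPM in dehydrated and 400, 438, 448, 512 and 381 CPM in rehydrated camels. Dehydrated and control libraries did not overlap in either tissue (-0.46 ± 0.12 in the cortex, -0.53 ± 0.12 in the medulla).

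COX11 (chromosome 16, 36598325 to 36604872, minus strand), which delivers copper to complex IV, was at 61.1, 65, 63.2, 55.9 and 54.3 CPM in the control cortex, 40.7, 47.2, 40.2, 50.2 and 35.6 CPM in the dehydrated cortex and 53.6, 49.5, 55.8, 51.3 and 45.7 CPM in the rehydrated cortex. In the medulla it was at 33.1, 28.8, 32.8, 33.9 and 31.5 CPM in control, 31.8, 29.6, 29.2, 27 and 28.6 CPM in dehydrated and 24.1, 21.6, 26.6, 23.4 and 28.5 CPM in rehydrated camels. The tissues did not show the same order: in the cortex the dehydrated libraries were all below control (-0.49 ± 0.11) and overlapped with the rehydrated ones, and in the medulla the rehydrated libraries were all below control (-0.37 ± 0.11), while dehydration and control overlapped (-0.13 ± 0.10). COX11 was also 1 of only 2 members, with COX18, whose medulla fold from dehydration to rehydration was below 0.

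In the remaining roles, the member with the smallest p in the dehydrated medulla is given as the example. ATP5MC3 (chromosome 5, 47193889 to 47198142, minus strand), a gene for the c subunit of the rotor ring, was in the medulla at 665, 505, 725, 552 and 447 CPM in control, 380, 348, 332, 245 and 383 CPM in dehydrated and 500, 457, 598, 578 and 439 CPM in rehydrated camels. Its cortex values were 785, 895, 1210, 1030 and 1200 CPM, 726, 919, 692, 1000 and 634 CPM and 1040, 1220, 1300, 911 and 864 CPM in the same order. The dehydrated medulla was below both other groups with no overlap (-0.78 ± 0.17 against control), and the cortex groups overlapped. ATP5F1B, listed for the medulla too, was there at 2580, 2440, 2670, 2060 and 2830 CPM in dehydrated and 3370, 3360, 3120, 4200 and 2800 CPM in rehydrated camels, and in the cortex at 4080, 4490, 3930, 5230 and 3650 and 6040, 5160, 5720, 5090 and 4060 CPM. Its dehydrated medulla was below all controls (-0.68 ± 0.16).

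COX6B1 (chromosome 9, 16314102 to 16322373, minus strand), a complex IV subunit facing the intermembrane space, was in the medulla at 650, 524, 702, 442 and 447 CPM in control, 389, 317, 363, 258 and 455 CPM in dehydrated and 394, 382, 491, 562 and 356 CPM in rehydrated camels. Its cortex values were 702, 707, 1060, 992 and 1180 CPM in control, 706, 844, 689, 908 and 701 CPM in dehydrated and 825, 887, 934, 700 and 705 CPM in rehydrated camels. All of these condition groups overlapped within a tissue (-0.63 ± 0.18 in the dehydrated medulla).

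No assembly factor of the protein list passed in either tissue. SDHAF2 (chromosome 10, 10227858 to 10239393, minus strand), which attaches the flavin to complex II, was in the medulla at 54.6, 43, 62.1, 44.1 and 45.5 CPM in control, 44.5, 32, 34.3, 28 and 41.7 CPM in dehydrated and 36.7, 32.8, 47.1, 52.1 and 30.5 CPM in rehydrated camels, with 1 dehydrated library within the control range (-0.47 ± 0.16, edgeR adjusted p = 0.15). In the cortex it was at 68.6, 70.6, 86, 86 and 87.3 CPM in control, 74.9, 87.9, 77.5, 77.3 and 75.4 CPM in dehydrated and 78.7, 102, 110, 68.2 and 77.2 CPM in rehydrated camels (-0.02 ± 0.16 with dehydration, edgeR adjusted p = 0.98).

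COX20 (chromosome 23, 19939065 to 19945395, minus strand), a chaperone of a complex IV subunit, was in the cortex at 52.1, 48.3, 65.7, 59.5 and 79.7 CPM in control, 34.7, 44.4, 31.6, 49 and 37.8 CPM in dehydrated and 58.5, 98.5, 68, 41.1 and 50.8 CPM in rehydrated camels. In the medulla it was at 25.8, 19, 29.7, 20.4 and 24 CPM, 19.7, 17.8, 18.4, 13.5 and 22.4 CPM and 19.5, 16, 36.6, 23.3 and 14.6 CPM in the same order. Neither the cortex difference with dehydration (-0.63 ± 0.22, edgeR adjusted p = 0.142) nor that of the medulla (-0.37 ± 0.23, edgeR adjusted p = 0.509) passed. NDUFAF3 (chromosome 17, 16171303 to 16172466, plus strand), an assembly factor of complex I, was in the medulla at 35.8, 31.4, 38.5, 23.9 and 21 CPM in control, 26.2, 20.3, 23.7, 17.4 and 29.4 CPM in dehydrated and 42.4, 22.3, 54.5, 32.8 and 26.8 CPM in rehydrated camels. In the cortex it was at 39.1, 37.7, 91.9, 56.1 and 73.1 CPM, 45.4, 67.4, 51.1, 70.5 and 54.5 CPM and 44.6, 84.5, 85.3, 33 and 50 CPM. Its groups overlapped in both tissues (medulla -0.36 ± 0.27, edgeR adjusted p = 0.618).

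Summed levels of some cell type markers differed between the conditions too. The summed proximal tubule markers, of which the DEG list names 4 of 5, were at 2520 to 5230 CPM in the control cortex, 921 to 1690 CPM in the dehydrated cortex and 3680 to 5560 CPM in the rehydrated cortex. In the medulla they were at 77.9 to 1040, 42.6 to 295 and 254 to 637 CPM. Thick ascending limb markers were at 5620 to 9020 CPM in the dehydrated cortex and 13600 to 21000 CPM in the dehydrated medulla, against 4190 to 5950 and 18300 to 22700 CPM in controls. ATP6V1B1, a proton pump subunit and the only matched marker of 6 for intercalated cells, was at 220 to 288 CPM in the control medulla and 110 to 168 CPM in the dehydrated medulla. In the cortex it was at 349 to 435 CPM in control and 267 to 324 CPM in dehydrated camels. Distal convoluted tubule markers were at 501 to 863 CPM in the dehydrated cortex and 626 to 2440 CPM in the rehydrated cortex, and at 64.0 to 481 CPM in the dehydrated medulla. Endothelial markers (3 matched of 6) were at 219 to 269 CPM in the control cortex and 356 to 423 CPM in the dehydrated cortex. In the medulla these groups overlapped, at 443 to 471 and 438 to 695 CPM. Fibroblast markers (2 of 6) were at 114 to 220 CPM in the control medulla and 56.4 to 132 CPM in the dehydrated medulla. The erythrocyte marker HBB (1 of 5, at 0 in at least 1 library) was at 1.82 to 25.2 CPM in the control medulla and 1.34 to 3.77 CPM in the dehydrated medulla. Principal cell markers (3 of 8) overlapped between these medulla groups, at 329 to 718 and 449 to 1180 CPM. So did the thin limb marker CLDN4 (1 of 4, 29.0 to 83.9 and 45.3 to 72.5 CPM), the leukocyte marker C1QA (1 of 7, 50.5 to 312 and 51.6 to 293 CPM), SYNPO (6.26 to 12.6 and 6.43 to 15.6 CPM) and the adipocyte markers (2 of 5, ADIPOQ at 0 in at least 1 library, 0.617 to 4.12 and 1.83 to 9.14 CPM). All matched markers came from the study's own lists, and the DEG list names 14 of them. Among these are ATP6V1B1, HBB, CLDN4, all 3 principal cell markers and 2 of the thick ascending limb. They were chosen by the study on these same counts, so that the marker values between conditions are a description. The part of these markers in the results was not tested.

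**Figure D4:**
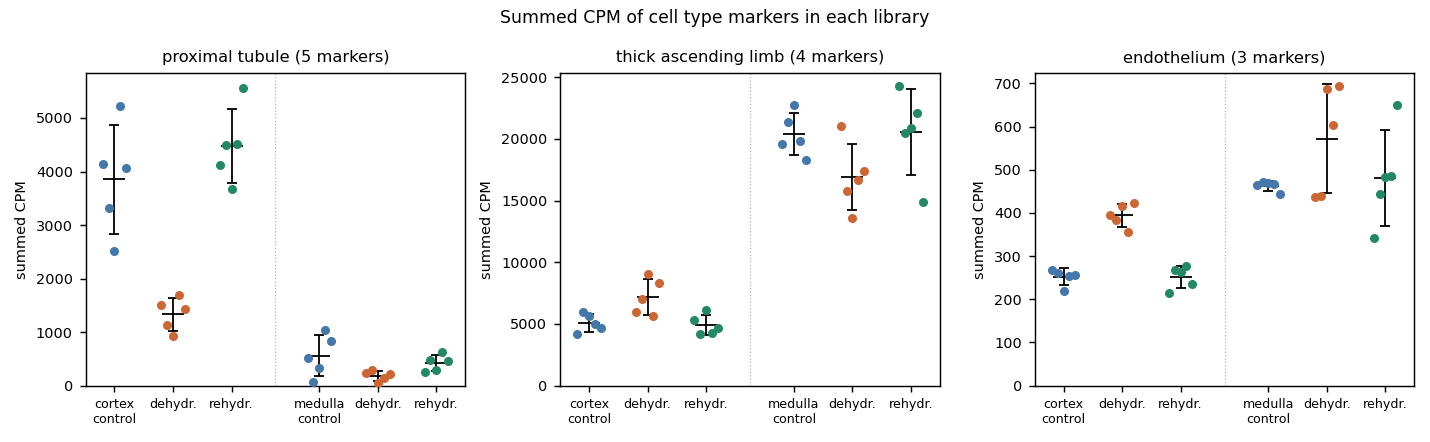
Summed CPM (y axis, from 0) of the matched markers of proximal tubule, thick ascending limb and endothelium in each library (points) by tissue and condition, with the mean and SD of 5 libraries as bars. Proximal tubule markers in the cortex are lowest after dehydration, at 921 to 1690 CPM, and endothelial markers are highest there among the cortex groups, at 356 to 423 CPM.

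Rehydration was compared with dehydration and with control, to ask how far these levels return within 3 days. In the medulla the summed level of the members was 11594 ± 1337 CPM after rehydration (SD, n = 5), 32.6% above dehydration, and in the cortex 20980 ± 3458 CPM, 20.2% above dehydration. Both overlapped with the dehydrated groups, though the ATP synthase subunits of the medulla did not (34.5% above). From dehydration to rehydration, 34 of 36 members in the medulla and 31 of 36 in the cortex had folds above 0, with medians of 0.38 and 0.27 (0.00 and 0.03 over all genes). This contrast shares the dehydrated libraries with the one before, so that opposite signs in both are not independent.

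In the medulla 4 of the 24 protein-listed members rose from dehydration to rehydration (ATP5IF1, ATP5F1D, NDUFC1 and NDUFS7), while 2.24% of all tested genes were higher. NDUFS7 is the only one of them in the protein list alone, by the shortened copies of the lists used here. Whether the study's complete DEG list names any of the 4 for this comparison is not known here. Among the DEG-listed genes without a protein entry, NDUFA2, ATP5F1C and ATP5MC3 were past the same threshold, as a description. In the cortex none of the 24 passed in edgeR, while 1.07% of all genes were higher. Of the 24, 6 had an unadjusted p under 0.05, and DESeq2 called 4. The DEG list, which the study made with DESeq2, names ATP5F1D, ATP5IF1 and COX20 for this cortex comparison. These counts are therefore not independent of how the genes came in. Of the 18 genes in the protein list alone, 1 had an unadjusted p under 0.05. Against control, none of the 24 passed in either tissue in edgeR or DESeq2 after rehydration, where 0.0845% of all genes were called in the cortex and 0.813% in the medulla; none in the cortex and 6 in the medulla had an unadjusted p under 0.05. The medians over all 36 against control were -0.05 in the cortex and -0.17 in the medulla.

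ATP5IF1 had the smallest p, at 0.95 ± 0.18 in the medulla (edgeR adjusted p = 0.00448). Each rehydrated medulla library was above each dehydrated one, by the values given above, and the call held without any 1 of the 10 libraries (edgeR adjusted p = 0.00226 to 0.0182). NDUFC1 rose by 0.59 ± 0.17 (edgeR adjusted p = 0.0428), also without overlap. The DEG list names ATP5IF1 and NDUFC1 for the dehydrated medulla against control, with the same dehydrated libraries. Both calls are therefore not independent of how the genes came in, and leaving out single libraries cannot remove this.

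NDUFS7 and ATP5F1D had the largest folds of this contrast. ATP5F1D (chromosome 22, 27146258 to 27147955, minus strand), the delta subunit of the ATP synthase stalk, was in the medulla at 116, 94.5, 126, 91.7 and 81.7 CPM in control, 71.4, 79.4, 65.5, 45.5 and 91.8 CPM in dehydrated and 223, 102, 286, 104 and 193 CPM in rehydrated camels. In the cortex it was at 140, 138, 480, 199 and 217 CPM in control, 128, 191, 147, 145 and 154 CPM in dehydrated and 139, 436, 532, 122 and 456 CPM in rehydrated camels. Rehydrated and dehydrated medulla did not overlap (1.36 ± 0.36, edgeR adjusted p = 0.032). In the cortex, rehydrated replicates 2, 3 and 5 were far above the dehydrated range and replicates 1 and 4 were within or below it (1.14 ± 0.36, edgeR adjusted p = 0.0896). The DEG list names ATP5F1D for this cortex comparison, so that its cortex values are a description.

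NDUFS7 (chromosome 22, 27023321 to 27030807, minus strand), a core iron-sulfur subunit of complex I next to the quinone site, was in the medulla at 74.8, 76.2, 61.4, 61.2 and 49.3 CPM in control, 41.4, 54.6, 32.9, 24.6 and 67.8 CPM in dehydrated and 157, 71.1, 165, 86.2 and 139 CPM in rehydrated camels. In the cortex it was at 86.2, 66, 387, 114 and 142 CPM in control, 87.7, 109, 81.2, 127 and 97.4 CPM in dehydrated and 87, 356, 399, 68.7 and 231 CPM in rehydrated camels. The rehydrated medulla lay above the dehydrated one (1.48 ± 0.42, edgeR adjusted p = 0.0442), and the cortex groups overlapped (1.19 ± 0.42, edgeR adjusted p = 0.137).

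The 4 cortex libraries highest in ATP5F1D were also the 4 highest in NDUFS7: control replicate 3 and rehydration replicates 2, 3 and 5, of which 3 are the libraries with few detected genes. In the medulla, rehydration replicates 1, 3 and 5 were the highest for both genes. Both genes lie on the minus strand of chromosome 22 with 115450 bases between them. NDUFB7, on the same chromosome, had 286 CPM in cortex control replicate 3, against 62.9 to 130 CPM in the other control libraries. COX17, chosen here after its values were seen, showed the widest gap of this kind in the control cortex, with 241, 217, 1240, 358 and 483 CPM in the control cortex and 250, 792, 966, 210 and 481 CPM in the rehydrated cortex.

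Without single libraries the medulla count of 4 fell to 1 (ATP5IF1) when dehydration replicate 1, 2, 3 or 4 or rehydration replicate 1 or 3 was left out, and to 2 without rehydration replicate 5 (edgeR adjusted p = 0.0521 to 0.122 for the calls lost). With only the 10 libraries of both groups in the fit, none of the 4 passed (0.061 to 0.119).

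**Figure D5:**
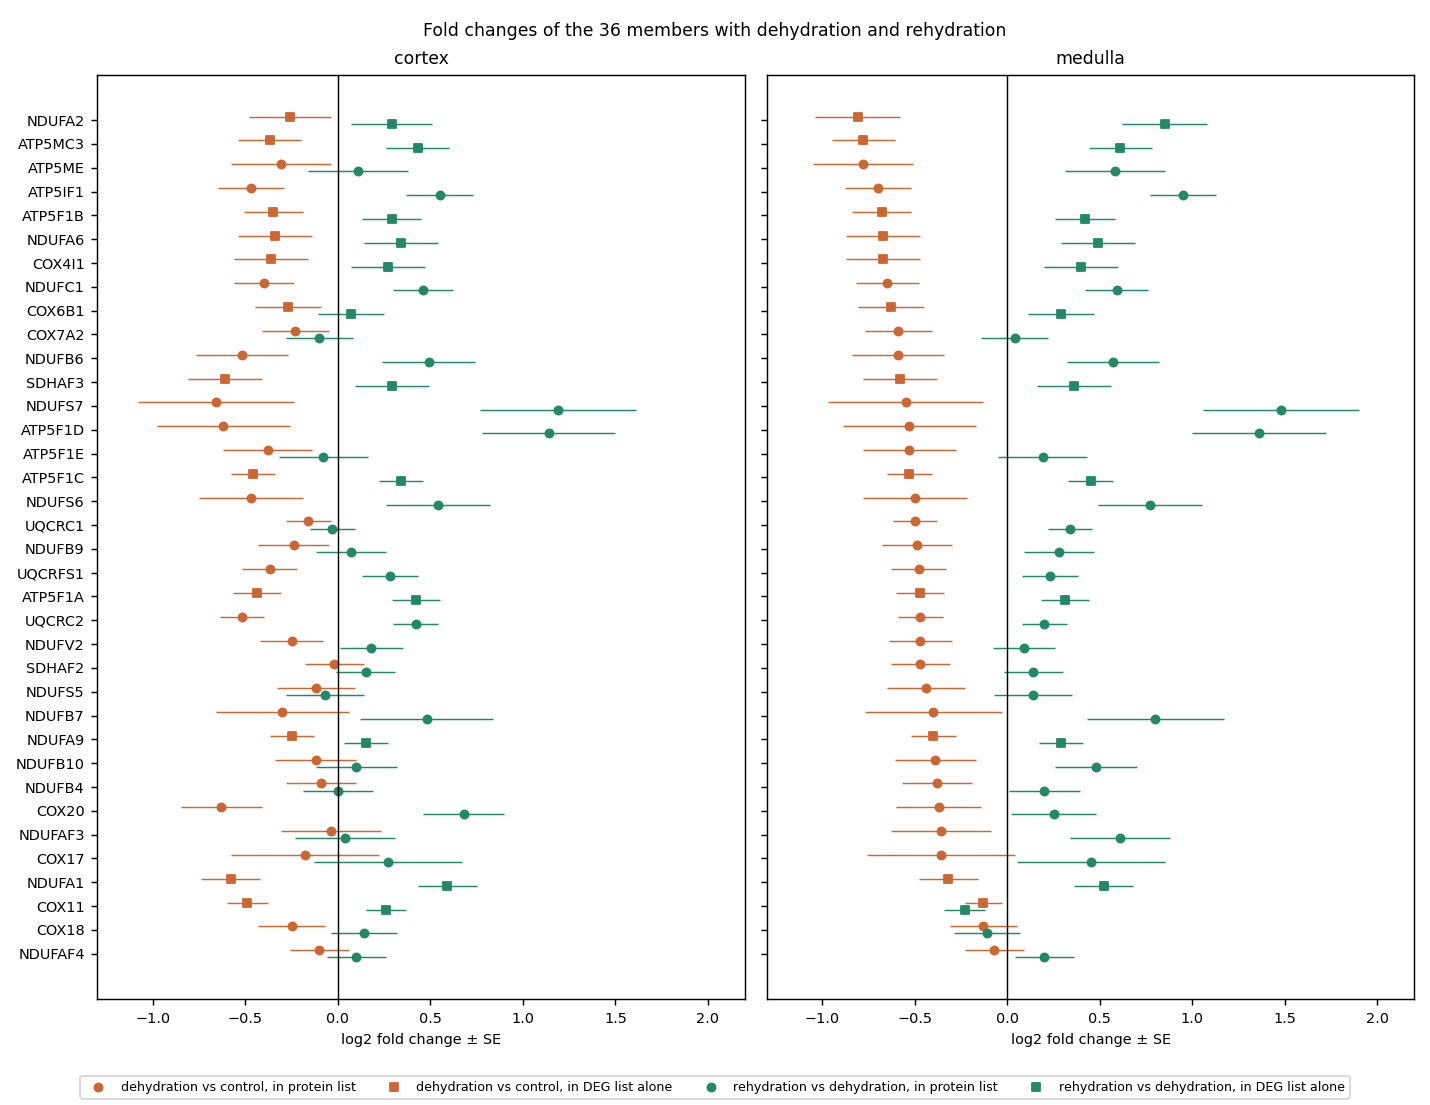
Log2 fold change with the SE (x axis) of each of the 36 members (y axis, ordered by the medulla) for both steps, control to dehydration and dehydration to rehydration, shown separately for cortex and medulla; circles are protein-listed genes and squares are in the DEG list alone. In both tissues all folds of dehydration against control lie below 0, and those of rehydration against dehydration lie above 0 for 31 members in the cortex and 34 in the medulla.

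The difference between the tissues in their response was tested as an interaction. For dehydration none of the 24 protein-listed genes passed in edgeR or DESeq2, none had an unadjusted p under 0.05, and the median interaction was -0.20 (-0.47 to 0.26); 0.0455% of all tested genes were called. For rehydration against control, again none passed in either tool, none had an unadjusted p under 0.05, and the median was 0.00 (-0.45 to 0.42), while 0% of all genes were called. COX11, of the DEG list alone, had an interaction of 0.36 ± 0.15 with dehydration. The medulla response thus cannot be called larger than that of the cortex for any member.

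The rest of the pathway was read from a fixed list of 106 further genes of the chain, of which 30 could be matched to an identifier (31 identifiers, as cytochrome c, CYCS, has 2). In the dehydrated medulla 4 of 31 were lower, against 1.16% of all genes, and none was higher. Of the 31, 27 were below 0, against 48.6% of all genes, with a median of -0.33. The 4 were ATP5MC1 (-0.88 ± 0.18), NDUFB8 (-0.67 ± 0.16), ATP5PB (-0.54 ± 0.13) and ATP5MF. All 4 are in the DEG list, so that this is a description. Of the 20 in the protein list alone none passed there in edgeR, which their absence from the DEG list made likely beforehand. TIMMDC1 (0.15 ± 0.17), TTC19 (0.13 ± 0.17) and TMEM70 (0.09 ± 0.20), which are assembly factors, had the smallest p above 0 and did not pass. In the dehydrated cortex 26 of 31 were below 0, against 49.5% of all genes, with a median of -0.31. None was called there, while 1.17% of all genes were lower. Between tissues, 26 of 31 were lower in the control medulla, against 28.6% of all genes, and none was higher (median -0.94), led by COA5 (-2.0 ± 0.19, edgeR adjusted p = 3.15e-09), an assembly factor of complex IV, SDHD (-1.29 ± 0.15, edgeR adjusted p = 4.94e-08), a membrane anchor of complex II, and ATP5PB (-0.98 ± 0.13, edgeR adjusted p = 8.74e-07). The 3 nearest to higher levels were LYRM7 (0.45 ± 0.23), a CYCS identifier (0.41 ± 0.21) and TTC19 (0.20 ± 0.18), and none of them passed. With library totals alone 19 of 31 were lower, against 14.4% of all genes, and the median was -0.41. On that scale 4 were higher, among them LYRM7 at 0.99 (edgeR adjusted p = 0.00159) and TTC19 at 0.73 (edgeR adjusted p = 0.00252). The scale moved the median of all genes by 0.52 towards the medulla. The share of all genes higher on it is not given here, so that these 4 are a description.

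Of 16 genes of the tricarboxylic acid cycle and pyruvate dehydrogenase, which feed electrons into the chain, 10 could be matched, 9 of them in the DEG list. In the dehydrated medulla OGDH (-0.46 ± 0.12), a subunit of oxoglutarate dehydrogenase, was past the threshold, while 1.16% of all genes were lower. IDH3G was at -0.39 ± 0.10 and IDH3A at 0.12 ± 0.15, and 9 of 10 were below 0, against 48.6% of all genes. As 9 of the 10 are in the DEG list, this is a description. Between tissues 6 of 10 were lower in the control medulla, against 28.6% of all genes, and 5 of 10 with library totals alone, against 14.4%. Among the 6 were SUCLG1 (-1.60 ± 0.19, edgeR adjusted p = 7.3e-08), PDHB (-0.99 ± 0.10, edgeR adjusted p = 1.38e-08) and IDH3G (-0.93 ± 0.10, edgeR adjusted p = 4.79e-08). IDH3A, the catalytic subunit of the isocitrate dehydrogenase that IDH3G belongs to, was higher in the medulla (0.40 ± 0.16, edgeR adjusted p = 0.0267), with overlapping groups.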

How the data were processed

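Poly(A) RNA from 30 camel kidney samples was sequenced, and the authors deposited raw counts of read pairs per gene, made by BBDuk trimming, alignment to CamDro2 and featureCounts 1.6.2 with reverse strand and Ensembl release 100. The methods name STAR and the table's columns name Rsubread as aligner. By default featureCounts leaves out reads that map to several places, which can lower genes with near-identical copies. The labels also name DESeq2 1.31.18. Genes of a mitochondrial chromosome are not analysed here.

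Counts were tested with edgeR 4.0.16 in R 4.3.3 (filterByExpr, TMM, bias-adjusted quasi-likelihood, 1 fit of 6 groups); this form of the test was chosen over the older one after the calls of both were seen. Benjamini-Hochberg adjustment ran over 15376 genes with a threshold of 0.05, and the method was tested on simulated data. Libraries held 12634346 to 20005136 counts, and a common biological coefficient of variation of 34% between animals limits precision more than counting does. Alternatives used DESeq2 1.42.0, limma-voom (limma 3.58.1), other scalings, filters, fits and covariates, and left out single libraries.

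Symbols were taken from the study's supplementary lists, of which shortened copies were used, and from RefSeq for 140 identifiers, so that 3792 of 22444 identifiers had a symbol. Members and gene lists were chosen with earlier results of these data known. Members given in every library are protein-listed genes called in a condition contrast (up to 4 by p), DEG-listed genes of both tissues, the smallest p of each role in the dehydrated medulla, and the 3 highest and 3 lowest folds between tissues. One further gene is not reported here. Marker lists for 12 cell types were used as summed CPM. Cortex and medulla of the same number name the same individual in the labels; their deviations correlated at -0.42 to 0.411, over 0.1 in 9 of 15 pairs, and the column names carry other numbers in the rehydrated cortex than in the rehydrated medulla, so that the pairing of that group is in doubt.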

Additional observations from a re-analysis of the deposited data

Results flagged for a closer look

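In 168 groups of 5 libraries, a single library far from the rest was looked for on log values. The mark was a gap over 0.71 of the group's range, which chance gives in about 1 in 20 groups, and 3 were found. NDUFAF4 was at 9.75 CPM in cortex rehydration replicate 5, against 14.6 to 16.4 CPM in the other libraries of that group. SDHAF2 was at 87.9 CPM in cortex dehydration replicate 2, against 74.9 to 77.5 CPM in the others. The summed level of both complex II assembly factors, which holds SDHAF2, was at 102 CPM in that library, against 86.7 to 90.7 CPM. On log values a gap above a group counts for less than in CPM. Cortex control replicate 3 was not flagged, although ATP5F1D was at 480 CPM there, against 138 to 217 CPM in the other control cortex libraries. NDUFS7 was at 387 CPM there, against 66 to 142 CPM.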

How the results depend on the processing

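The counts between conditions depend on the fit, the counts between tissues on the scaling. Of the protein-listed members, 4 fell in the dehydrated medulla, and this count was 2 without a filter, 2 with RNA integrity as a covariate, 2 with the replicate number as a block, 1 with the older quasi-likelihood fit of edgeR (added after seeing the data), and 0 with the libraries of the medulla alone, with only the compared groups and at an adjusted p of 0.01. The cortex count of 1 was 2 with only the compared groups, and 0 with RNA integrity or at 0.01. From dehydration to rehydration, the medulla count of 4 was 2 with RNA integrity, 2 with the older fit, 1 at 0.01 and 0 with only the compared groups. The cortex count of 0 was 4 with DESeq2, 3 with library totals alone, and 1 with RLE factors, a mean of at least 1 CPM or the replicate block. The DEG list names 3 of these members for that cortex comparison, so that such calls are not independent of it. Between tissues, library totals alone gave 22 in control and 20 in rehydrated camels in place of 34 and 32. Among the members that this scale turned in control camels were ATP5F1A (0.06), ATP5F1B (0.08) and NDUFAF4 (0.23). The cause was not tested. Leaving out 1 library at a time gave 0 to 1 in the dehydrated cortex (0 without control replicate 4 or dehydration replicate 3 or 5), 0 to 1 in the rehydrated against the dehydrated cortex (1 without rehydration replicate 1, 4 or 5), 0 to 4 in the dehydrated medulla, 1 to 4 in the rehydrated against the dehydrated medulla, and 31 to 34, 33 to 35 and 29 to 34 between tissues in control, dehydrated and rehydrated camels. The other counts of 0, of rehydration against control and of both interactions, stayed at 0 in every fit run.

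By the labels the replicate number marks the same animal between tissues, where as a block it gave 32 and 35 lower members in control and dehydrated camels and 32 in rehydrated camels, whose pairing is in doubt. Between conditions it is only a shared number, and there ATP5IF1 (adjusted p = 0.0527) and NDUFC1 (0.0589) lost their medulla calls with dehydration and NDUFC1 (0.0634) its call with rehydration. Among single named members, 51 fits without 1 library lost a call and 209 were unchanged. Of the other fits 41 lost a call, 280 were unchanged and 3 turned in direction. For tested genes unchanged means the same side of the threshold, and for genes described without a test a shift smaller than the spread between replicates. The unchanged fits also include genes that had no call to lose (COX20, NDUFAF3, NDUFAF4 and SDHAF2), so that they do not measure how well calls held. Without their most abundant gene, 20 sums by role moved by less than the spread between replicates, and that of the complex II assembly factors in the dehydrated cortex moved to -34.6%. With 5 animals a group, the interval of a single member stays wide (SE 0.10 to 0.42 for the folds between conditions given above).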
